A study of Mus musculus with 2 samples.

Results

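The classical cadherins and the non-clustered protocadherins are families of membrane proteins by which cells adhere to and recognise each other. Their genes were followed through the cell classes of the embryonic mouse cortex. Members were all genes of the deposited feature list whose symbol is Cdh or Pcdh followed only by digits, with the X-linked Pcdh11x included. This rule found 35 of 32285 listed genes. They were grouped by structure into 5 type I classical cadherins (Cdh1, Cdh2, Cdh3, Cdh4 and Cdh15), 13 type II classical cadherins (Cdh5 to Cdh12 and Cdh18, Cdh19, Cdh20, Cdh22 and Cdh24), 5 other cadherins (Cdh13, Cdh16, Cdh17, Cdh23 and Cdh26), 4 delta-1 protocadherins (Pcdh1, Pcdh7, Pcdh9 and Pcdh11x), 5 delta-2 protocadherins (Pcdh8, Pcdh10, Pcdh17, Pcdh18 and Pcdh19) and 3 other protocadherins (Pcdh12, Pcdh15 and Pcdh20).

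Single-cell RNA sequencing was performed on dissociated dorsal telencephalon, the embryonic region that forms the cerebral cortex, of mouse embryos labelled WT (wild type) at E16.5, counted in days of embryonic development. The labels describe the tissue as brain hemispheres and the genotype only as WT; the titles carry the name EmxDot, for a cross in which Emx1-Cre, active in the cortical progenitor lineage, removes Dot1l, and whether these WT embryos carry Cre or floxed alleles is not given. Conditional knockout embryos were not analysed here. The 2 libraries, WT replicate 1 and WT replicate 6, form 1 group, so every comparison below is between cell classes within these libraries.

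Classical cadherins bind the same or a related cadherin on the neighbouring cell and are anchored through catenins to actin. Type I cadherins, such as N-cadherin (Cdh2) of the radial glial junctions at the ventricle, are usually broadly expressed, whereas type II cadherins mark sets of neurons in combinations that differ between nuclei, layers and axon tracts. Non-clustered protocadherins bind more weakly, and several of them recruit regulators of actin or phosphatases instead of catenins.

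WT replicate 1 held 14136 cells and 74930397 unique molecular identifiers (UMIs, one per captured mRNA molecule), and WT replicate 6 held 13046 cells and 68964234 UMIs. A cell was kept if it had 1500 to 60000 UMIs, of which under 10% were mitochondrial, which left 8139 and 8209 cells with medians of 6924 and 6664 UMIs, and 26 barcodes occurred among the kept cells of both libraries. Of the 16348 kept cells, 11594 were given a class, named for its markers, by marker lists that contain no member. In WT replicate 1 and WT replicate 6 these gates held 485 and 483 radial glia (RGCs), 470 and 529 intermediate progenitors (IPCs), 2034 and 2272 excitatory neurons, 761 and 804 interneurons, 222 and 176 striatal neurons, 110 and 88 endothelial cells and 131 and 123 mural cells. RGCs and IPCs together are called pallial progenitors, and endothelial and mural cells vascular cells. In the gates on which the comparisons rest, every marker of the gate's own list had UMIs in both libraries. The cells were chosen by these same markers, so this does not test the gates. All 15 interneuron markers, for example, also had UMIs in both libraries in excitatory neurons. Striatal neurons, at 2.73% and 2.14% of kept cells, belong to the ventral telencephalon, and 2548 cells lay within 0.1 of a score at which their class would change. The libraries differed in sex: Xist, the RNA of the inactive X chromosome, had 76258 and 10 UMIs and the Y-linked Ddx3y 5 and 2193 UMIs, which bears on the X-linked members Pcdh11x and Pcdh19. Each class is present in both libraries, so that this difference falls on both sides of each comparison. An effect of sex that differs between classes cannot be told apart from other differences between the libraries and was not tested.

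UMIs were summed per library and class and are given as CPM, UMIs per 1000000 UMIs of that class and library, always with WT replicate 1 first. The class sums, 2 on each side, were compared with the quasi-likelihood test of edgeR, two-sided, and a gene was called at an adjusted p under 0.05 over all genes tested. Differences are log2 values of the first-named class minus the second, with their standard error (SE). Genes of very different length and intron content cannot be ranked by CPM in these data, so levels are compared only within a gene. Droplets also take up RNA released by other cells, and microglia, which lack neuronal transcripts, were used to show that level. The 10 excitatory-neuron markers, for example, summed to 654 and 408 CPM in microglia beside 4843 and 4901 CPM in excitatory neurons. This reference depends on few cells. Of 29 members, 24 lay above microglia in both libraries in excitatory neurons. When cells scored as doublets were left out of both classes, which left 35 and 46 microglia, 15 did. Pallial progenitors had 21 and then 13, interneurons 22 and 11, striatal neurons 20 and 10, and vascular cells 15 and 9. These counts were not made over all genes. Without cells scored as doublets, Cdh8 and Cdh10 in interneurons were no longer above microglia. Nor were Cdh8, Cdh12, Cdh20 and Pcdh10 in striatal neurons in that setting. Of the statements below that compare levels with microglia over all kept cells, the 1 for Pcdh9 in progenitors changed in that setting.

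Most members were measurable. Of the 35, 6 (Cdh1, Cdh3, Cdh15, Cdh16, Cdh17 and Cdh26) had between 3 and 62 UMIs in all kept cells together and entered no comparison, and 29 had at least 100. Within the 9 finest classes, 27 members reached 100 UMIs, and each of these was assigned to the class where its mean CPM was highest. Deep-layer excitatory neurons led for 7 members (Cdh2, Cdh8, Cdh9, Cdh13, Cdh18, Pcdh7 and Pcdh20), RGCs for 4 (Cdh4, Cdh6, Cdh20 and Pcdh10), MGE-type interneurons for 3 (Pcdh15, Pcdh17 and Pcdh19), CGE-type interneurons for 3 (Cdh22, Pcdh9 and Pcdh11x) and endothelial cells for 3 (Cdh5, Pcdh1 and Pcdh12). IPCs led for Cdh7 and Cdh10, upper-layer neurons for Cdh12 and Pcdh8, mural cells for Cdh11 and Pcdh18, and striatal neurons for Cdh24. For 19 of the 27 the lowest library of the leading class lay above the highest library of the next class. This count was not made over all genes, so it does not set these 19 members apart from other genes. The other 8 (Cdh2, Cdh7, Cdh24, Pcdh1, Pcdh8, Pcdh9, Pcdh11x and Pcdh17) had leading classes that overlapped the next one; Cdh2, for example, had 942 and 905 CPM in deep-layer neurons and 876 and 929.9 CPM in RGCs. The lowest mean of Cdh2 in the 9 classes was 556 CPM, in mural cells.

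**Figure D1:**
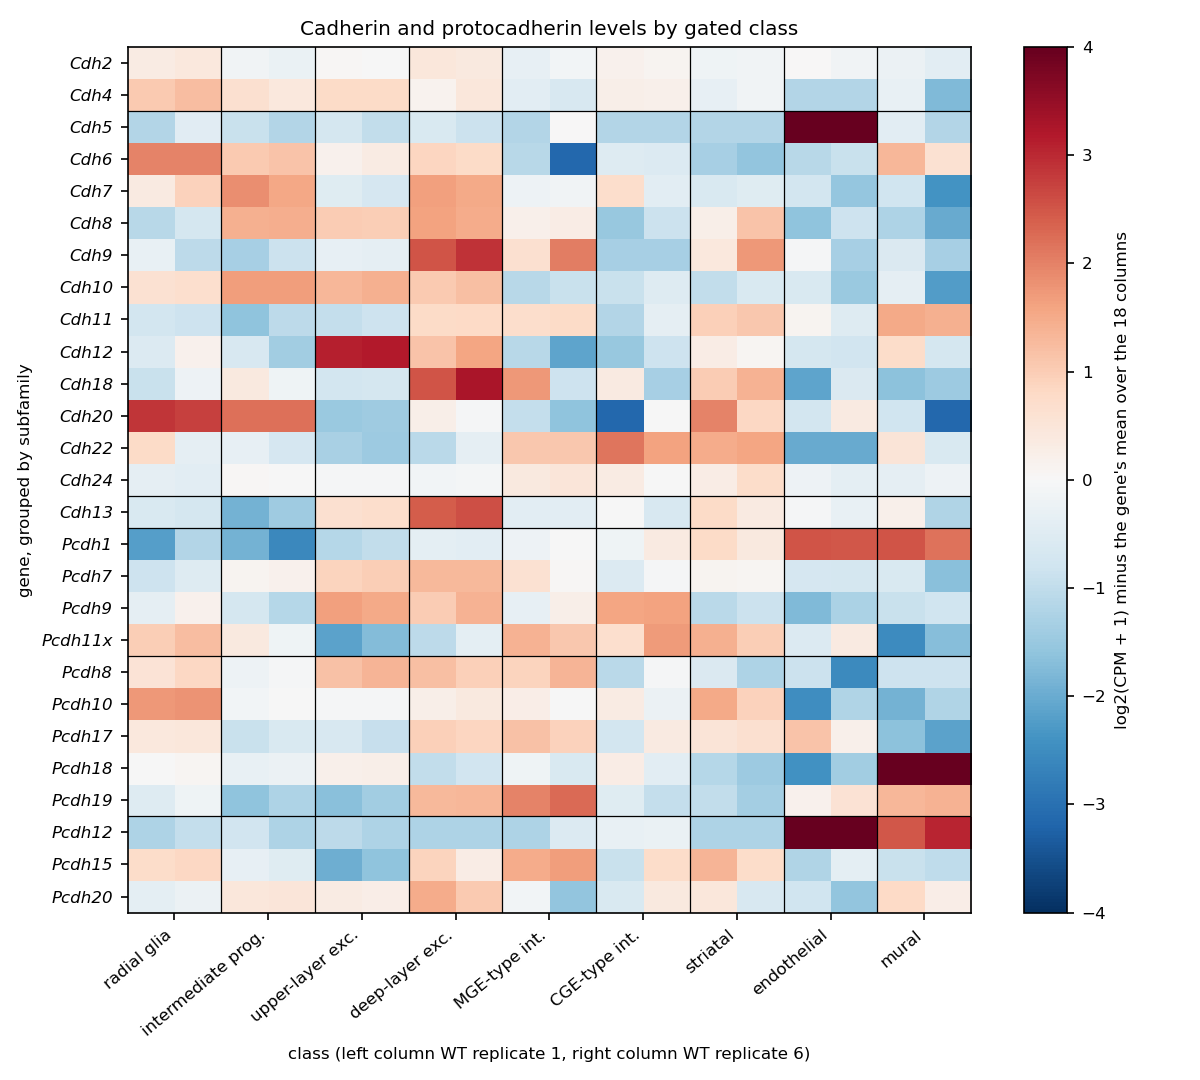
Levels of the 27 members with at least 100 UMIs in 9 gated classes, as log2(CPM + 1) minus the gene's mean over the 18 columns; each class has a column for WT replicate 1 (left) and WT replicate 6 (right), and black lines separate subfamilies and classes. Red cells are above the gene's mean, and the strongest red (limited at 4) falls on Cdh5 and Pcdh12 in endothelial cells and on Pcdh18 in mural cells.

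The number of different members found in a cell also differed between classes. After every cell was thinned to 2000 UMIs, excitatory neurons held 4.23 ± 0.06 members with a UMI (mean ± SD of the 2 library means), pallial progenitors 3.23 ± 0.03, interneurons 2.79 ± 0.03, striatal neurons 2.71 ± 0.02 and vascular cells 2.61 ± 0.06. Microglia held 1.0 and 0.97, but 2.38 and 1.81 (29 and 31 cells) when cells scored as doublets were left out. Among the 5 compared classes excitatory neurons were highest in both libraries, while interneurons, striatal neurons and vascular cells lay close together. Genes of any kind per thinned cell were not counted, so these means do not set the members apart from other genes. Without thinning the library means of excitatory neurons were 7.34 and 7.21. Outside the compared classes, thinned oligodendrocyte precursor cells held more members (5.52 and 5.68, in 44 and 38 cells) and Cajal-Retzius cells 4.13 and 4.02.

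Most members differed between layers of excitatory neurons. Between deep-layer (389 and 416 cells) and upper-layer (1353 and 1563 cells) excitatory neurons, 20 of the 24 members tested were called (16 higher and 4 lower in deep-layer neurons), beside 18.1% of all 13918 genes tested (11.4% higher, 6.67% lower). The median absolute log2 difference of the members tested was 1.23, beside 0.21 for all genes. The largest differences were 3 genes higher in deep-layer neurons, namely the type II genes Cdh18 (chr15:22548898-23477491, GRCm38) and Cdh9 (chr15:16728550-16857138) and the delta-2 gene Pcdh19 (chrX:133582860-133689044), which is mutated in an X-linked epilepsy of girls.

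The stretches before the RefSeq starts of these 3 genes and of the mural gene Pcdh18, described further below, are shown because the first 3 genes differed most between layers and Pcdh18 was the member with the largest difference toward mural cells. They are the 250 bases before the start listed for each gene, from RefSeq on GRCm38.p6, written 5′ to 3′ on the strand of the gene, with the letters CCAAT or their reverse complement ATTGG in capitals. A listed start need not be the outermost one of the gene: that of Cdh18 lies far inside the gene span given above and that of Cdh9 a short way inside it, and the windows of Pcdh19 and Pcdh18 partly overlap the spans of their genes. Other starts were not examined.
Cdh9 (chr15:16728665-16728914, plus strand): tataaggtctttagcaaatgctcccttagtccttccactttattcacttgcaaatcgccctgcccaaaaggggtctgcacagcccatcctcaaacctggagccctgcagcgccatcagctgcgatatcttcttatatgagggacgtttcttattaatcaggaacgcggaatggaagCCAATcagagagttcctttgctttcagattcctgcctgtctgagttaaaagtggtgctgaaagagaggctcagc
Cdh18 (chr15:23036213-23036462, plus strand): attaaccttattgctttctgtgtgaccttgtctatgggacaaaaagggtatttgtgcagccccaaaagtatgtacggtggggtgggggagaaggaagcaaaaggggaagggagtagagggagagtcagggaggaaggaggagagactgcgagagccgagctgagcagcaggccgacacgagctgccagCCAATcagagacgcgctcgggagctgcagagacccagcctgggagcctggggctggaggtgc
Pcdh19 (chrX:133688994-133689243, minus strand): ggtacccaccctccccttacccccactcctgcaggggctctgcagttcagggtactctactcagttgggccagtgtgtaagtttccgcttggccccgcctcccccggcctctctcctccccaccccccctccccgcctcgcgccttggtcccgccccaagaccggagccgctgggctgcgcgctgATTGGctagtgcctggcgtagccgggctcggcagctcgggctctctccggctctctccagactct
Pcdh18 (chr3:49757317-49757566, minus strand): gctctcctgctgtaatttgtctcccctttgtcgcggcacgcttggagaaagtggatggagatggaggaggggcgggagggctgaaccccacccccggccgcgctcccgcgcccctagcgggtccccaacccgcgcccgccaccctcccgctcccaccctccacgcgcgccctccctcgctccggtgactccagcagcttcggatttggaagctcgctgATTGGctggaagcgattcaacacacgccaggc

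Each of the 4 stretches holds these letters 1 time, in capitals at 74 bases before the start in Cdh9, 62 in Cdh18, 65 in Pcdh19 and 32 in Pcdh18, counted from the first letter on the gene strand. CCAAT was searched on both strands, and was found in 14 of the 22 members that have a listed promoter and in 33.8% of all 32851 listed promoters. The longest stretch common to the Cdh9 and Cdh18 windows is AGCCAATCAGAGA, which overlaps the CCAAT letters and occurs on either strand in 0.0944% of all promoters (31 of them). These letters were chosen after the sequences had been seen. CpG dinucleotides number 6 in Cdh9, 8 in Cdh18, 16 in Pcdh19 and 23 in Pcdh18, beside a median of 6 over all promoters. By the observed-to-expected CpG ratio, Pcdh18 stood at the 82.2 percentile of all promoters and Cdh9, at 53.8, near the middle.

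Cdh18 measured 41.1 and 69.2 CPM in deep-layer neurons against 3.47 and 3.56 CPM in upper-layer neurons. Cdh9 measured 13.5 and 17.8 CPM in deep-layer neurons against 1.03 and 0.996 CPM in upper-layer neurons. Pcdh19 measured 63.4 and 64.6 CPM in deep-layer neurons against 7.23 and 8.89 CPM in upper-layer neurons. In each of the 3 genes both deep-layer values lay above both upper-layer values, although Cdh18 differed widely between the deep-layer libraries. Such separation was not counted over all genes. The log2 differences were 3.95 ± 0.26 (SE, adjusted p = 1.87e-05) for Cdh18, 3.91 ± 0.26 (SE, adjusted p = 2.34e-05) for Cdh9 and 2.98 ± 0.12 (SE, adjusted p = 1.44e-06) for Pcdh19. In upper-layer neurons none of the 3 genes was above its level in microglia in both libraries.

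Cells with a UMI followed the same order. After thinning to 2000 UMIs, Pcdh19 was found in 12.7% and 11.1% of deep-layer neurons, 0.670% and 1.48% of upper-layer neurons and 3.16% and 1.14% of microglia. Unthinned, the deep-layer shares were 29.6% and 26.9%. Cdh18 was found in 5.19% and 6.51% of thinned deep-layer neurons and 0.670% and 0.515% of upper-layer neurons, so that most deep-layer cells had no Cdh18 UMI at this depth.

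Further members were higher in deep-layer neurons. Among the type II genes, Cdh7 was higher by 2.53 ± 0.21 and Cdh20 by 1.92 ± 0.25. Cdh13 (T-cadherin, which is held by a lipid anchor and lacks a cytoplasmic domain) measured 702 and 789.9 CPM in deep-layer neurons against 202 and 211 CPM in upper-layer neurons, with a difference of 1.84 ± 0.08 (SE, adjusted p = 2.16e-06). Pcdh15, known as the lower part of the tip link of auditory hair cells, was higher by 2.45 ± 0.20, and Pcdh17, a delta-2 member of corticobasal ganglia synapses, by 1.72 ± 0.11. Cdh11 was higher by 1.68 ± 0.07. In upper-layer neurons Cdh7, Cdh20 and Pcdh15 were not above microglia in both libraries. Without cells scored as doublets, Cdh20 was not above microglia in deep-layer neurons, nor were Cdh11 and Pcdh17 in upper-layer neurons. The deep-layer and upper-layer libraries did not overlap in any of these further members, a separation that was likewise not counted over all genes.

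The main gene of the opposite direction was Cdh12, a type II cadherin. It measured 153 and 206 CPM in deep-layer neurons against 606 and 622 CPM in upper-layer neurons, a log2 difference of -1.79 ± 0.12 (SE, adjusted p = 2.80e-05). Upper-layer levels were thus the higher ones in both libraries. After thinning, Cdh12 was found in 48.2% and 50.1% of upper-layer neurons, 17.7% and 21.9% of deep-layer neurons and 4.21% and 6.82% of microglia; unthinned, the upper-layer shares were 72.2% and 72.7%. The other members lower in deep-layer neurons were Pcdh18 (-1.23 ± 0.18 (SE, adjusted p = 0.00192)), Cdh4 (-0.47 ± 0.10 (SE, adjusted p = 0.0108)) and Cdh10 (-0.26 ± 0.07 (SE, adjusted p = 0.0472)). The Cdh10 call was lost without the normalization factors that edgeR applies to library sizes (TMM; adjusted p = 0.0708) and under 6 further alternatives, DESeq2 among them. With all classes in 1 fit, which pools the spread over classes, 13 members were called instead of 20, and Cdh4 was among those lost. That fit called 1637 of all 14528 genes tested.

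**Figure D2:**
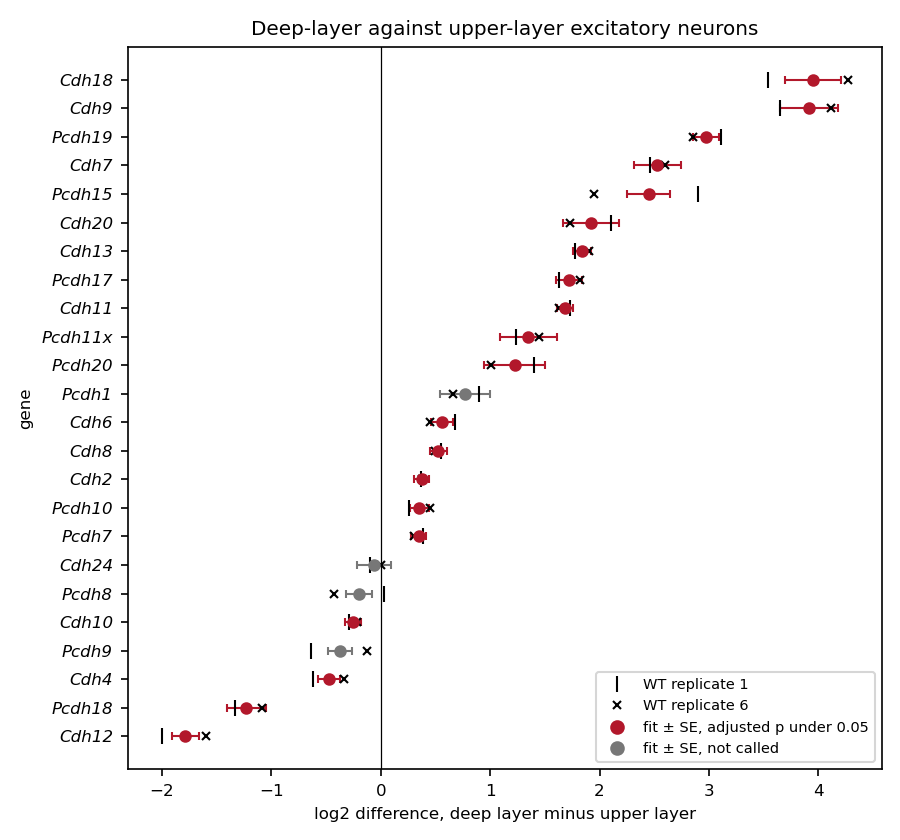
Log2 difference of deep-layer minus upper-layer excitatory neurons for the 24 members tested, with the fit ± SE as circles (red: adjusted p under 0.05) and the differences within WT replicate 1 (bars) and WT replicate 6 (crosses). Most red points lie right of 0, led by Cdh18 and Cdh9, and Cdh12 lies farthest left.

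From progenitors to excitatory neurons the family changed in both directions. Between excitatory neurons and pallial progenitors, 23 of the 26 members tested were called (15 higher and 8 lower in excitatory neurons), beside 62.1% of all 15847 genes tested (30.3% higher, 31.8% lower). Over all genes the median absolute difference was 0.54, and over members 1.02. Cdh12, Cdh9, Cdh13 and Pcdh9 rose most, and Cdh20, Pcdh11x and Cdh22 fell most.

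Cdh12 measured 466 and 505 CPM in excitatory neurons against 45.3 and 50.8 CPM in pallial progenitors, a difference of 3.50 ± 0.08 (SE, adjusted p = 8.47e-08). Cdh13 measured 327 and 346 CPM in excitatory neurons against 59.3 and 63.4 CPM in pallial progenitors, a difference of 2.62 ± 0.07 (SE, adjusted p = 1.11e-07). Pcdh9, a long delta-1 gene, measured 2281 and 2235 CPM in excitatory neurons against 552 and 615 CPM in pallial progenitors (2.12 ± 0.08 (SE, adjusted p = 3.26e-07)). The progenitor levels of Cdh12 and Cdh13 were not above those of microglia in both libraries, whereas Pcdh9 in progenitors was, though not without cells scored as doublets. Cdh9 rose by 3.42 ± 0.37 from low counts (77 and 90 against 5 and 3 UMIs), and Cdh18 by 1.54 ± 0.20. Pcdh1, Pcdh7 and Pcdh8, the last known as an activity-regulated synaptic protein, rose by 1.46 ± 0.24, 1.38 ± 0.08 and 1.10 ± 0.10. In progenitors Cdh9, Cdh18 and Pcdh1 were not above microglia in both libraries. Without cells scored as doublets, Cdh9 and Pcdh1 were not above microglia in excitatory neurons either.

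In the other direction, the type II gene Cdh20 measured 3.90 and 3.75 CPM in excitatory neurons against 50.8 and 48.2 CPM in pallial progenitors, a difference of -3.53 ± 0.10 (SE, adjusted p = 1.40e-07). Pcdh11x measured 6.69 and 9.22 CPM in excitatory neurons against 40.9 and 39.3 CPM in pallial progenitors (-2.17 ± 0.14 (SE, adjusted p = 6.37e-06)). In excitatory neurons neither gene was above microglia in both libraries. Cdh22 fell by 1.81 ± 0.44 on 14 and 17 against 39 and 18 UMIs, and without the filter on low counts this call was lost. Among the type I genes, N-cadherin (Cdh2) differed by 0.18 ± 0.07 (SE, adjusted p = 0.0469) and R-cadherin (Cdh4) by 0.02 ± 0.07 (SE, adjusted p = 0.842). In this comparison the normalization factors of edgeR (TMM) shifted the median of all genes from -0.16 to 0.01, a shift about as large as the Cdh2 difference. Without them Cdh2 differed by 0.01 (adjusted p = 0.894), and its call was also lost with DESeq2 size factors (adjusted p = 0.0553). Without them 12 members were higher and 8 lower; no called member changed sign.

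Within the progenitors, RGCs and IPCs carried different cadherins. Between RGCs and IPCs, 18 of the 24 members tested were called (12 higher and 6 lower in RGCs), beside 38.9% of all 13437 genes tested (21.2% higher, 17.6% lower). Members had a median absolute difference of 0.90 and all genes one of 0.35. Type I genes were higher in RGCs, where N-cadherin holds the ventricular junctions together, with Cdh2 at 876 and 929.9 CPM in RGCs against 632 and 574 CPM in IPCs and a difference of 0.51 ± 0.10 (SE, adjusted p = 0.00353) and Cdh4 at a difference of 0.55 ± 0.11 (SE, adjusted p = 0.00414).

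The delta-2 protocadherins also leaned to RGCs, with 4 of 5 called higher and none lower. Pcdh10 (OL-protocadherin, known from the growth of striatal axons) measured 163 and 169 CPM in RGCs against 44.9 and 48.2 CPM in IPCs, a difference of 1.76 ± 0.09 (SE, adjusted p = 1.69e-06). Pcdh17 was higher by 1.13 ± 0.12 and Pcdh19 by 1.09 ± 0.21. Pcdh15 was higher by 1.13 ± 0.10, Pcdh11x by 0.93 ± 0.18 and Cdh13 by 0.92 ± 0.14. The Pcdh11x call was lost without the filter on low counts. In IPCs Pcdh19 and Cdh13 were not above microglia in both libraries. Without cells scored as doublets, Pcdh8, Pcdh19 and Cdh13 were not above microglia in RGCs.

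Type II genes went both ways. Cdh8 measured 76.0 and 100.2 CPM in RGCs against 438 and 450.4 CPM in IPCs, the largest difference of the family here at -2.41 ± 0.13 (SE, adjusted p = 2.09e-06). The IPC level lay just below that of deep-layer neurons, 497 and 460.2 CPM, and in RGCs it was not above microglia in both libraries. Cdh10 measured 126 and 134 CPM in RGCs against 267 and 269 CPM in IPCs (-1.11 ± 0.08 (SE, adjusted p = 1.46e-05)), and Cdh7 was lower in RGCs, with a difference of -1.23 ± 0.25 (SE, adjusted p = 0.0043). Cdh6 and Cdh20 were higher in RGCs: Cdh6 measured 98.0 and 98.5 CPM in RGCs against 50.6 and 54.6 CPM in IPCs (0.83 ± 0.09 (SE, adjusted p = 1.52e-04)), and Cdh20 differed by 0.54 ± 0.11 (SE, adjusted p = 0.00407). Cdh23 (-1.77 ± 0.50 (SE, adjusted p = 0.0219)) and Pcdh20 (-1.21 ± 0.41 (SE, adjusted p = 0.0468)) were called lower in RGCs from at most 16 UMIs per sum, and both calls were lost with DESeq2. With all classes in 1 fit the calls of Cdh20 and Cdh4 were lost as well.

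Interneurons, which enter the cortex from the ganglionic eminences, had lower levels of several type II genes than excitatory neurons. Between interneurons and excitatory neurons, 19 of the 26 members tested were called (7 higher and 12 lower in interneurons), beside 42.1% of all 15037 genes tested (21.1% higher, 21% lower). The median absolute log2 difference of the members tested was 0.98, beside 0.37 for all genes. Of the 11 type II genes tested, 2 were called higher and 4 lower, and both type I genes tested were called lower. The call of Cdh2 (-0.20 ± 0.07 (SE, adjusted p = 0.038)) was lost without TMM factors (adjusted p = 0.174) and with DESeq2 (adjusted p = 0.116).

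Cdh12 measured 23.1 and 28.5 CPM in interneurons against 466 and 505 CPM in excitatory neurons, a difference of -4.30 ± 0.11 (SE, adjusted p = 1.70e-08); the interneuron values were not above the 48.7 and 33.9 CPM of microglia. Cdh10 measured 38.2 and 43.4 CPM in interneurons against 214 and 236 CPM in excitatory neurons (-2.53 ± 0.09 (SE, adjusted p = 9.00e-08)). Cdh8 measured 128 and 150.5 CPM in interneurons against 387 and 386 CPM in excitatory neurons (-1.54 ± 0.09 (SE, adjusted p = 1.81e-06)). Groups did not overlap in any of these type II genes, which were called from the same sums, and this was not counted over all genes. Also lower in interneurons were Cdh13 (-1.94 ± 0.07 (SE, adjusted p = 1.33e-07)), Cdh6 (-1.30 ± 0.13 (SE, adjusted p = 6.01e-05)) and Pcdh20 (-1.62 ± 0.36 (SE, adjusted p = 0.00754)). Pcdh20 rested on 6 and 5 against 87 and 77 UMIs, and its call was lost under a stricter cell filter.

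Members higher in interneurons included 1 type II gene with a large difference. Cdh22, also called PB-cadherin, measured 16.3 and 10.6 CPM in interneurons against 0.673 and 0.816 CPM in excitatory neurons, a log2 difference of 4.09 ± 0.32 (SE, adjusted p = 1.48e-05). Pcdh11x measured 55.7 and 56.8 CPM in interneurons against 6.69 and 9.22 CPM in excitatory neurons (2.75 ± 0.14 (SE, adjusted p = 1.14e-06)), and Pcdh15 measured 131 and 142 CPM in interneurons against 37.3 and 34.1 CPM in excitatory neurons (1.86 ± 0.08 (SE, adjusted p = 4.65e-07)). Pcdh19 was higher by 1.32 ± 0.11. Cdh22 had no UMI in microglia of either library.

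**Figure D3:**
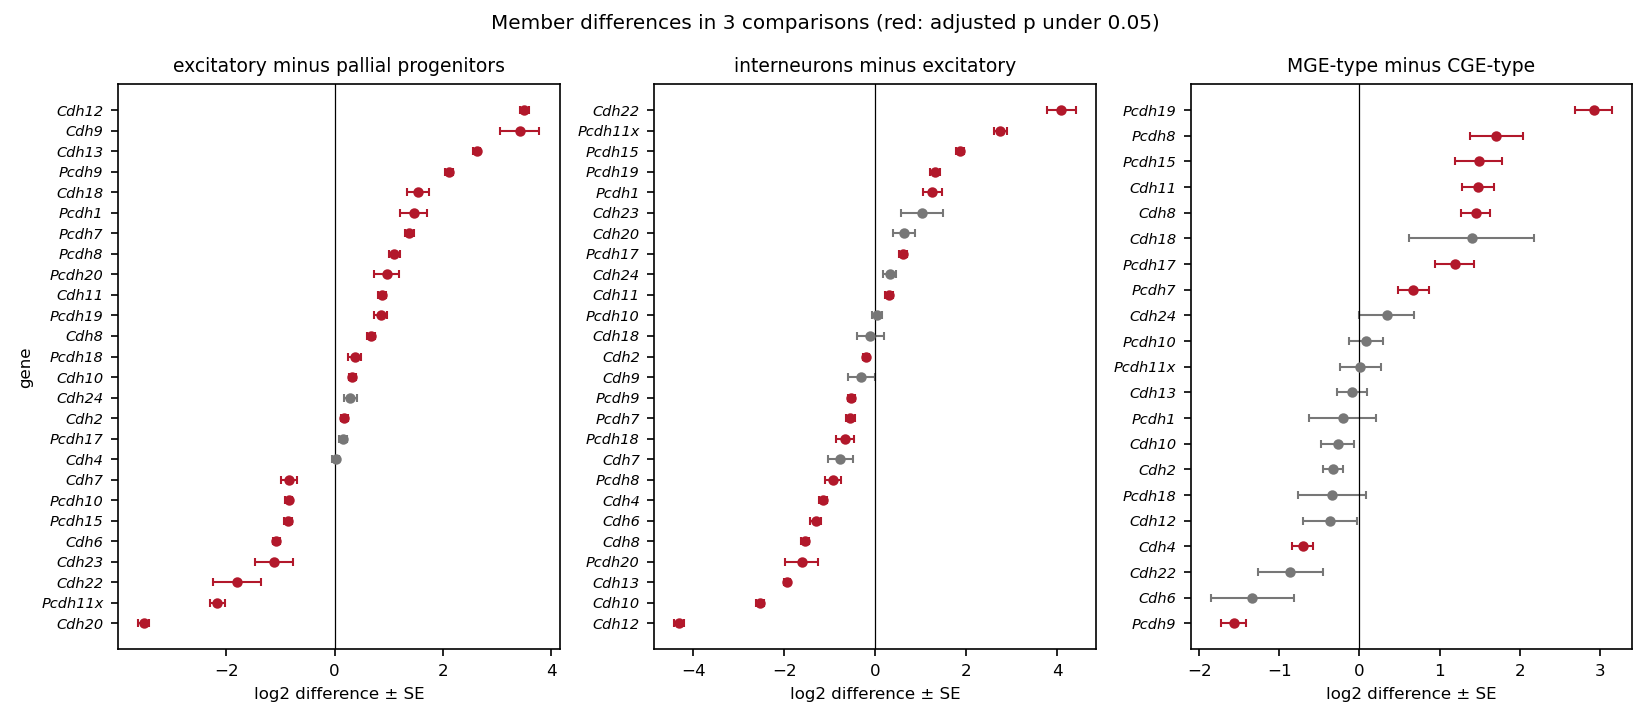
Log2 difference ± SE of each member tested in 3 comparisons, with calls at an adjusted p under 0.05 in red and the others in grey. Cdh12 is at the top of the excitatory-minus-progenitor panel and at the bottom of the interneuron-minus-excitatory panel, and Pcdh19 stands alone at the top of the MGE-minus-CGE panel.

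Interneurons of the medial (MGE) and caudal (CGE) ganglionic eminence differed in delta-2 protocadherins. Between MGE-type (336 and 336 cells) and CGE-type (145 and 161 cells) interneurons, 9 of the 21 members tested were called (7 higher and 2 lower in MGE-type cells), beside 12.5% of all 10275 genes tested (5.7% higher, 6.81% lower). The median absolute log2 difference of the members tested was 0.71, beside 0.25 for all genes. All 3 delta-2 calls were higher in MGE-type cells.

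Pcdh19 measured 101 and 125 CPM in MGE-type cells against 17.7 and 12.5 CPM in CGE-type cells, with a difference of 2.92 ± 0.23 (SE, adjusted p = 3.89e-07), and after thinning it was found in 13.1% and 20.0% of MGE-type and 2.84% and 2.53% of CGE-type cells. Pcdh8 measured 35.8 and 49.5 CPM in MGE-type cells against 8.39 and 18.3 CPM in CGE-type cells (1.71 ± 0.33 (SE, adjusted p = 0.00202)), and Pcdh17 measured 110.4 and 92.0 CPM in MGE-type cells against 28.9 and 62.4 CPM in CGE-type cells (1.19 ± 0.24 (SE, adjusted p = 0.00349)). The CGE-type libraries differed widely from each other in Pcdh8 and Pcdh17, yet both lay below the MGE-type values. Cdh8 and Cdh11 were the type II genes called, with Cdh8 at 191 and 201 CPM in MGE-type cells against 56.9 and 90.3 CPM in CGE-type cells (1.45 ± 0.18 (SE, adjusted p = 3.84e-05)) and Cdh11 at 151 and 158 CPM in MGE-type cells against 41.0 and 73.0 CPM in CGE-type cells (1.48 ± 0.20 (SE, adjusted p = 1.01e-04)). Pcdh15 was higher in MGE-type cells by 1.49 ± 0.29 (SE, adjusted p = 0.00246) and Pcdh7 by 0.67 ± 0.19 (SE, adjusted p = 0.0296), but neither was called by DESeq2.

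In contrast, Pcdh9 measured 636 and 941 CPM in MGE-type cells against 2382 and 2423 CPM in CGE-type cells, a difference of -1.57 ± 0.15 (SE, adjusted p = 3.38e-06). Both CGE-type values were as high as the upper-layer values, 2477 and 2277 CPM. Cdh4 was also lower in MGE-type cells (-0.71 ± 0.13 (SE, adjusted p = 0.00155)), a call lost with all classes in 1 fit. Cdh18 was not called (23.5 and 3.13 CPM in MGE-type cells against 8.39 and 1.92 CPM in CGE-type cells); 1 MGE-type library lay far above the other, and the groups overlapped.

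Striatal neurons share their GABAergic identity with interneurons but keep a ventral position. Between striatal neurons and interneurons, 10 of the 23 members tested were called (6 higher and 4 lower in striatal neurons), beside 18% of all 11973 genes tested (8.25% higher, 9.73% lower). On the log2 scale the median absolute difference of members was 0.44, beside 0.28 for all genes. All 4 type II calls were higher in striatal neurons, and 2 of the 3 delta-2 calls were lower.

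Cdh20 measured 34.0 and 14.7 CPM in striatal neurons against 5.43 and 7.07 CPM in interneurons (2.05 ± 0.37 (SE, adjusted p = 0.00147)), with striatal libraries that differed widely. Cdh12 measured 83.8 and 72.8 CPM in striatal neurons against 23.1 and 28.5 CPM in interneurons (1.62 ± 0.16 (SE, adjusted p = 1.16e-05)). Cdh11, known from mesenchymal and neuronal junctions, measured 180.5 and 199 CPM in striatal neurons against 88.0 and 104 CPM in interneurons (0.99 ± 0.12 (SE, adjusted p = 4.89e-05)). Cdh8 was higher by 0.99 ± 0.20 (SE, adjusted p = 0.00412), Cdh13 by 1.11 ± 0.13 (SE, adjusted p = 4.42e-05) and Pcdh10, which had 141 and 92.2 CPM in striatal neurons against 62.5 and 48.7 CPM in interneurons, by 1.10 ± 0.18 (SE, adjusted p = 8.41e-04). The Cdh8 call was lost with all classes in 1 fit. For each of these 6 genes both striatal values exceeded both interneuron values, but the genes had been called from the same sums. Such separation was not counted over all genes.

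Pcdh19 measured 12.2 and 9.22 CPM in striatal neurons against 53.8 and 64.6 CPM in interneurons, a difference of -2.42 ± 0.23 (SE, adjusted p = 6.01e-06). Pcdh9 measured 376 and 438 CPM in striatal neurons against 1527 and 1777 CPM in interneurons (-2.02 ± 0.11 (SE, adjusted p = 4.53e-08)). In striatal neurons neither gene was above microglia in both libraries, whereas in interneurons both were. Pcdh8 (-1.29 ± 0.34 (SE, adjusted p = 0.019)) and Pcdh7 (-0.44 ± 0.11 (SE, adjusted p = 0.0143)) were lower as well, on smaller margins that were lost with DESeq2.

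Vascular cells held members that had few UMIs in neural progenitors, and less of most neural members. Between vascular cells and pallial progenitors, 20 of the 27 members tested were called (7 higher and 13 lower in vascular cells), beside 50.9% of all 14759 genes tested (26.9% higher, 24% lower). In absolute terms the median difference of members was 1.43 and that of all genes 0.55. Higher were VE-cadherin (Cdh5), the adhesion molecule of endothelial junctions, Pcdh12, also known as VE-cadherin-2, and Pcdh1, Pcdh18, Cdh11, Pcdh19 and Cdh13.

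Cdh5 had 432 and 395 against 1 and 3 UMIs in vascular cells and progenitors, a ratio of 754 (95% counting interval 294 to 2776) per UMI sequenced. Pcdh12 had 78 and 72 against 2 and 1 UMIs, a ratio of 182 (61.2 to 895). Pcdh1 measured 58.8 and 52.2 CPM in vascular cells against 1.56 and 2.15 CPM in pallial progenitors (4.98 ± 0.20 (SE, adjusted p = 8.48e-08)). In the progenitors these 3 genes were rare, with at most 21 UMIs in a sum. Pcdh18 measured 159 and 142 CPM in vascular cells against 10.7 and 11.2 CPM in pallial progenitors (3.88 ± 0.12 (SE, adjusted p = 1.89e-08)), Cdh11 was higher by 2.01 ± 0.12 (SE, adjusted p = 1.02e-06) and Pcdh19 by 1.91 ± 0.15 (SE, adjusted p = 7.96e-06).

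Lower in vascular cells were the neural members Cdh20 (-3.29 ± 0.19 (SE, adjusted p = 7.34e-07)), Cdh7 (-3.07 ± 0.43 (SE, adjusted p = 3.29e-04)), Pcdh10 (-2.70 ± 0.21 (SE, adjusted p = 5.58e-06)), Cdh10 (-2.15 ± 0.28 (SE, adjusted p = 2.10e-04)) and Cdh8 (-1.99 ± 0.10 (SE, adjusted p = 3.20e-07)). None of these 5 was above microglia in both libraries in vascular cells. The type I gene Cdh2 was not called, with 644 and 579 CPM in vascular cells against 752 and 743 CPM in pallial progenitors (adjusted p = 0.169, or 0.0298 with the library as a block in edgeR). Without cells scored as doublets the class held 150 and 119 instead of 241 and 211 cells. In that setting 21 members were called, beside 7230 of all 13936 genes tested.

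Within this vascular set several members differed between endothelial and mural cells, while others, such as Pcdh1, were not called. Between endothelial and mural cells, 9 of the 21 members tested were called (4 higher and 5 lower in endothelial cells), beside 27.3% of all 11184 genes tested (14.4% higher, 12.9% lower). Members tested had a median absolute difference of 0.62, and all genes tested 0.39. Cdh5 and Pcdh18 formed the clearest pair.

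Cdh5 had 431 and 395 against 1 and 0 UMIs, a ratio of 821 (95% counting interval 147 to 32461), and was found in 44.9% and 42.5% of thinned and 79.1% and 80.7% of unthinned endothelial cells. Pcdh18 measured 1.43 and 3.95 CPM in endothelial cells against 309 and 290.4 CPM in mural cells, a difference of -6.74 ± 0.27 (SE, adjusted p = 8.12e-08). It was found in 46.9% and 49.6% of thinned mural cells, 0% and 1.15% of endothelial cells and 1.05% and 0% of microglia, and in 82.4% and 84.6% of unthinned mural cells. Each gene thus marked 1 vascular class in both libraries.

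Pcdh12 was found in both and was higher in endothelial cells, at 43.0 and 39.5 CPM in endothelial cells against 12.3 and 18.6 CPM in mural cells (1.48 ± 0.28 (SE, adjusted p = 0.00258)). Pcdh17 measured 109 and 56.1 CPM in endothelial cells against 15.05 and 10.1 CPM in mural cells (2.74 ± 0.38 (SE, adjusted p = 3.13e-04)). Pcdh11x was also higher in endothelial cells (2.29 ± 0.47 (SE, adjusted p = 0.00431)). In mural cells Pcdh17 and Pcdh11x were not above microglia in both libraries. Without cells scored as doublets, Pcdh11x was not above microglia in endothelial cells either. Pcdh1 was not called, at 58.7 and 57.6 CPM in endothelial cells against 58.8 and 46.4 CPM in mural cells, and was above microglia in both cell types.

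Mural cells were higher in Cdh6 (-2.06 ± 0.33 (SE, adjusted p = 8.01e-04)), Cdh11 (-1.59 ± 0.20 (SE, adjusted p = 1.73e-04)), Pcdh19 (-0.95 ± 0.20 (SE, adjusted p = 0.00567)) and Pcdh9 (-0.62 ± 0.17 (SE, adjusted p = 0.0235)). Cdh11 measured 101 and 64.7 CPM in endothelial cells against 267 and 252 CPM in mural cells, without overlap. The calls of Pcdh19 and Pcdh9 were lost with DESeq2. The Pcdh9 difference turned to 0.78 (adjusted p = 0.406) when cells scored as doublets were left out, and in neither class was it above microglia in both libraries.

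The 5 type II genes Cdh6, Cdh9, Cdh10, Cdh12 and Cdh18 lie within 10.4 Mb of chromosome 15 (13028699 to 23477491, GRCm38), and their levels did not run in parallel over the classes. Cdh6 was highest in RGCs, at 98.0 and 98.5 CPM. Cdh10 was highest in IPCs, at 267 and 269 CPM, and Cdh12 in upper-layer neurons, at 606 and 622 CPM. Cdh9 and Cdh18 were highest in deep-layer neurons. In all 5 genes the leading class was clear of the next one in both libraries, as it was in 19 of the 27 members. This count was not made over all genes, so it does not set the 5 genes apart. Mural cells also held Cdh6, at 62.3 and 37.1 CPM.

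**Figure D4:**
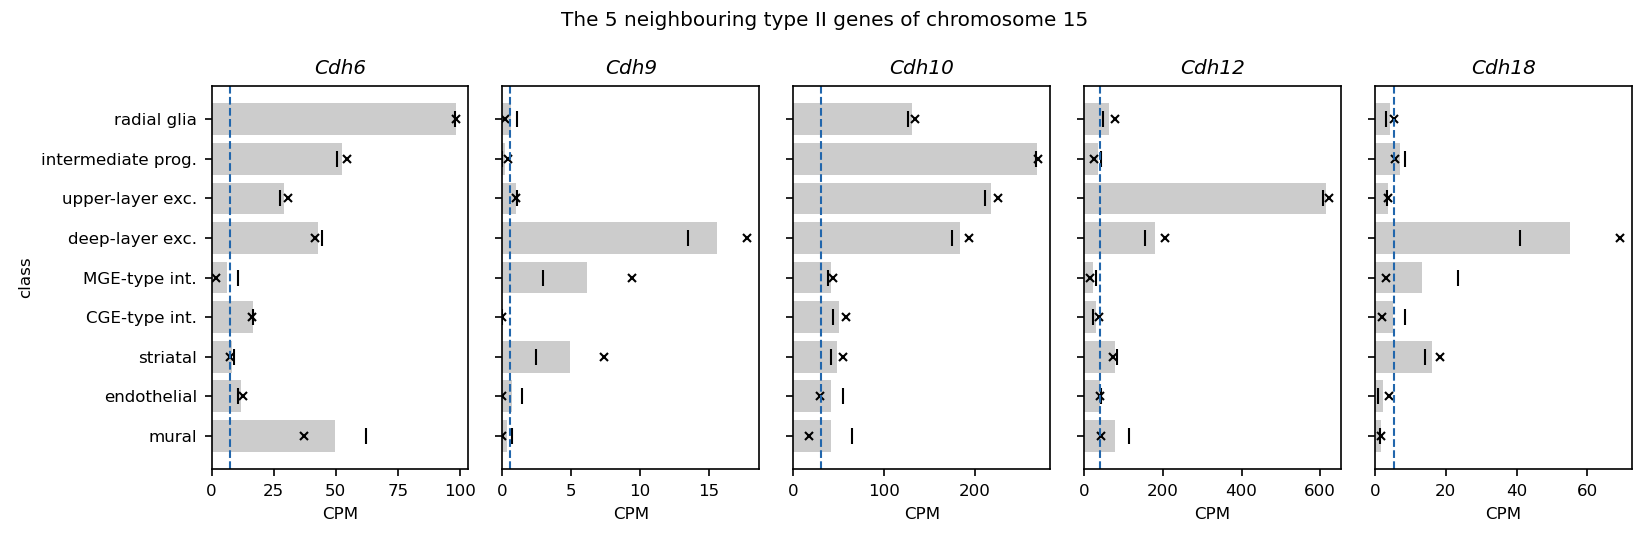
Levels in CPM of the 5 type II genes of chromosome 15 in 9 classes, with the mean as a grey bar, WT replicate 1 as a tick, WT replicate 6 as a cross and the mean of microglia as a dashed line; each panel has its own scale. The leading class moves from RGCs (Cdh6) to IPCs (Cdh10), upper-layer (Cdh12) and deep-layer neurons (Cdh9 and Cdh18).

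Across the 9 class means, Pearson's r of log2 levels described which member was most like another. The highest values were 0.88 between Cdh9 and Cdh18, 0.87 between Pcdh7 and Cdh8, 0.84 between Pcdh1 and Pcdh12 and 0.79 between Pcdh11x and Pcdh15 and between Cdh4 and Cdh10. The 9 points come from the same 2 libraries, and the values are descriptions only.

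The catenins, which tie classical cadherins to actin, were counted in the same fits. All 7 (Ctnnb1, Ctnna1, Ctnna2, Ctnna3, Ctnnd1, Ctnnd2 and Jup) were tested in each comparison. In vascular cells against progenitors all 7 were called (4 higher and 3 lower), beside 50.9% of all genes, and in excitatory neurons against progenitors 6 (4 higher and 2 lower), beside 62.1%. Between endothelial and mural cells 4 were called (3 higher and 1 lower in endothelial cells), beside 27.3%, and between MGE-type and CGE-type cells 2, both lower in MGE-type cells, beside 12.5%. In each of the other 4 comparisons 3 of 7 were called, which is near the share of all genes between interneurons and excitatory neurons (42.1%) and between RGCs and IPCs (38.9%), while that share was 18.1% between layers and 18% between striatal neurons and interneurons. Between deep and upper layers these were Ctnna3 and Ctnnd2, higher, and Ctnna1, lower in deep-layer neurons. Ctnna1, the alpha-catenin of epithelial junctions, fell by 2.10 ± 0.07 from progenitors to excitatory neurons, while the neuronal Ctnna2 rose by 1.28 ± 0.07. Plakoglobin (Jup) was 4.76 ± 0.17 higher in vascular cells than in progenitors.

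Of the other cadherin-superfamily genes, 14 were followed, among them the Celsr, Fat, Dchs and calsyntenin (Clstn) genes. Called were 11 of 12 tested in excitatory neurons against progenitors (beside 62.1% of all genes), 9 of 12 in interneurons against excitatory neurons (42.1%), 8 of 11 in vascular cells against progenitors (50.9%), 8 of 11 in RGCs against IPCs (38.9%), 6 of 12 in deep against upper layers (18.1%), 6 of 9 in endothelial against mural cells (27.3%), 4 of 11 in striatal neurons against interneurons (18%) and 4 of 10 in MGE-type against CGE-type cells (12.5%). Celsr1, a planar polarity gene, fell by 3.41 ± 0.08 from progenitors to excitatory neurons, and Clstn2 rose by 3.37 ± 0.08.

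**Figure D5:**
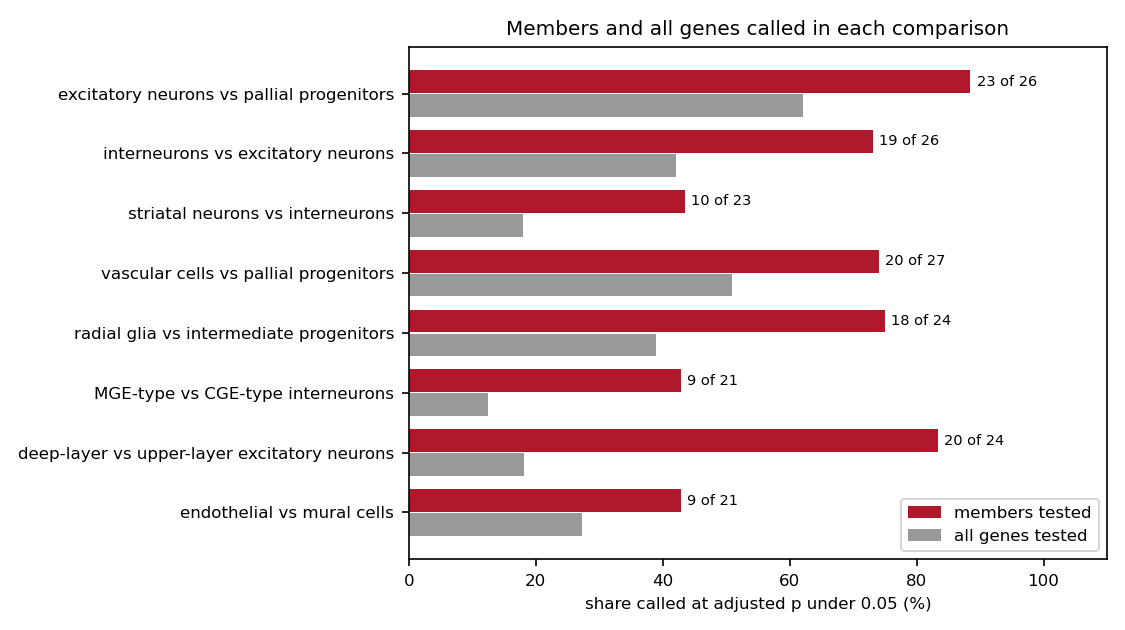
Share of tested members (red) and of all tested genes (grey) called at an adjusted p under 0.05 in each of the 8 comparisons, in percent, with the count of members beside the bar. The red bar is longer than the grey one in each comparison, and the gap is widest between deep and upper layers; comparisons share classes and libraries and are not independent.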

How the data were processed

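The sources used here describe both libraries as made from dissociated E16.5 dorsal telencephalon with the 10x Genomics 3′ chemistry, version 3.1. The tissue label itself reads brain hemispheres. The authors processed the reads with Cell Ranger 7.0.0 and build mm10, according to the submitters' processing notes, and deposited the UMI counts of each gene in each cell as they were, with no scaling. Whether intronic reads were counted is not given in the sources used here. The shallowest deposited barcode had 500 UMIs in both libraries, so the matrices were already limited to called cells. The labels name the libraries by different numbers but do not say that they come from separate embryos; by Xist and Ddx3y they differ in sex, their summed counts differed over 26962 genes with a chi-square of 26.9 per degree of freedom, and they were used as 2 samples. The p-values measure the spread between these libraries.

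The cell filter asked for 1500 to 60000 UMIs with fewer than 10% from mitochondria. Counts were scaled to 10000 per cell, log transformed and standardised per gene, and each of 12 marker lists was scored by its mean. A class required a score of at least 0.3, a lead of 0.2 and 3 detected markers. GABAergic cells were divided into interneurons and striatal neurons (780 could not be divided), interneurons into MGE-type and CGE-type cells and excitatory neurons into layers by the same lead. These thresholds were set after the marker scores had been seen. Doublets were scored from 2 simulated doublets per cell at 0.8% per 1000 cells (920 and 857 cells) and left out only in an alternative. Sums per library and class were compared with edgeR 4.0.16 (glmQLFit and glmQLFTest, two-sided, TMM, filterByExpr, Benjamini-Hochberg over all genes tested) in R 4.3.3, each fit holding only its own classes. Differences within a library used a prior count of 0.5. The fit was tested on simulated data.

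The gene members, the marker lists and the lists of catenins and other cadherin-superfamily genes were chosen with earlier results of these data known. A longer list of cadherin partners, from which the catenins were taken after its counts had been seen, is not reported here. By the rule for named genes the text gives, in each comparison, up to 10 called members with the largest difference of equal sign in both libraries, and members needed for pairs; further members were named after their values had been seen. The libraries pair the sums, since each gave both classes, and a blocked fit was run as an alternative; deviations of sums of the same library correlated with r from 0.13 to 0.33 across genes. Other alternatives were DESeq2 1.42.0, its size factors within edgeR, no filter on low counts, all classes in 1 fit, a stricter cell filter (3000 to 30000 UMIs, under 5% mitochondrial), 1 more marker in the gate, and single libraries; a fit without TMM factors was added after seeing the data. The 95% intervals cover counting error only. Gene spans and promoters are those of RefSeq on GRCm38.p6, the build also named mm10. Promoters were listed for 22 of the 35 members.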

Additional observations from a re-analysis of the deposited data

Results flagged for a closer look

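Some members were far higher in gated cells outside the compared classes, at least 2 times the highest library of any of the 9 classes and with at least 10 UMIs in both libraries. In oligodendrocyte precursor cells (45 and 38 cells), Pcdh15 measured 1069 CPM (1045 and 1093), Pcdh11x 616 CPM (595 and 636) and Cdh20 286 CPM (258 and 314). The highest of the 9 classes had 179.7 CPM for Pcdh15, in MGE-type cells, and 60.2 CPM for Cdh20, in RGCs. In Cajal-Retzius cells (83 and 67 cells), the early-born Reln-expressing neurons of the marginal zone, Pcdh11x measured 682 CPM (543 and 821) and Cdh7 83.1 CPM (48.9 and 117). In microglia (107 and 108 cells), Cdh23 measured 19.2 CPM (16.6 and 21.8) from 15 and 18 UMIs.

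These classes are small and changed with the doublet score, an alternative chosen after seeing the data. Without cells scored as doublets, oligodendrocyte precursor cells fell to 21 and 10 and Cajal-Retzius cells to 54 and 38, and the levels were 453 CPM for Pcdh15, 211 CPM for Pcdh11x and 402 CPM for Cdh20 in the former and 474 CPM for Pcdh11x and 126 CPM for Cdh7 in the latter. Microglia then numbered 35 and 46, and Cdh23 measured 24.0 and 8.53 CPM. None of these levels was tested.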

How the results depend on the processing

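The count of members called stayed within 1.5 times of the reported one in all 8 comparisons under DESeq2, its size factors in edgeR, no filter on low counts, the doublet and cell filters, 1 more marker, no TMM factors (added after seeing the data) and the replicate block, and in 7 of 8 with all classes in 1 fit; the exception was deep-layer against upper-layer neurons, with 13 instead of 20. With the libraries as blocks (pairing), 23, 21, 10, 21, 20, 11, 22 and 10 members were called in the order excitatory against progenitors, interneurons against excitatory, striatal against interneurons, vascular against progenitors, RGCs against IPCs, MGE-type against CGE-type, deep against upper layers and endothelial against mural cells, and no call was lost. In the same order these fits called 10859, 7686, 2944, 7649, 6047, 1573, 3468 and 3256 of all genes, more than the main fit in each comparison. Over all genes DESeq2 called fewer, for example 1568 instead of 2514 between layers, 638 instead of 1286 between MGE-type and CGE-type cells, 1117 instead of 2153 between striatal neurons and interneurons, 3188 instead of 5226 between RGCs and IPCs, 1870 instead of 3052 between endothelial and mural cells and 4220 instead of 6336 between interneurons and excitatory neurons. Also, 1 more marker gave 542 genes between MGE-type and CGE-type cells, and all classes in 1 fit gave 1637 between layers. For called members of equal sign in both libraries, 1058 of 1149 tested alternatives kept direction and call, 90 kept only the direction (40 of 128 results), and Pcdh9 between endothelial and mural cells turned to 0.78 without doublets. Without doublets, members detected per thinned cell were 4.18 in excitatory neurons, 3.08 in pallial progenitors, 2.67 in interneurons, 2.59 in striatal neurons and 2.14 in vascular cells; under the stricter cell filter they were 3.06 in pallial progenitors, 2.70 in interneurons, 2.59 in striatal neurons and 2.68 in vascular cells. Causes of these shifts were not tested. Depth limits members with few UMIs: the calls of Cdh23 and Pcdh20 between RGCs and IPCs rested on at most 16 UMIs per sum.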

Other observations

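Fibroblasts (126 and 121 cells) carried a set of members of their own mixture. Cdh11 measured 341 CPM there beside 259 CPM in mural cells, and Pcdh18 measured 64.3 CPM beside 299.8 CPM. Cdh5 measured 58.1 CPM in fibroblasts, and Cdh1 (E-cadherin, the epithelial type I gene) measured 5.34 CPM although it had only 50 UMIs in all kept cells. N-cadherin (Cdh2) was low in fibroblasts, at 152 CPM, beside 179.0 CPM in microglia and 556 CPM in mural cells.

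Cajal-Retzius cells had 819 CPM of Cdh4, beside 429 CPM in RGCs, and 103 CPM of Cdh18, beside 55.1 CPM in deep-layer neurons. Ganglionic eminence progenitors (228 and 213 cells) had 37.1 CPM of Cdh7 and 42.2 CPM of Cdh20, beside 16.3 CPM of Cdh7 in IPCs and 60.2 CPM of Cdh20 in RGCs. Cdh19, known from glial precursors and Schwann cells, had 17.0 CPM in oligodendrocyte precursor cells and at most 1.72 CPM as a mean in the 9 compared classes. These levels are descriptions, and no test was made on them.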
